A study of Caenorhabditis elegans with 21 samples.

Results

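The CCCH zinc finger maternal regulators of Caenorhabditis elegans described here are the 7 genes oma-1 (C09G9.6), oma-2 (ZC513.6), mex-1 (W03C9.7), mex-5 (W02A2.7), mex-6 (AH6.5), pie-1 (Y49E10.14) and pos-1 (F52E1.1). They were picked by name from 19119 named genes in the deposited mRNA table, and all 7 were found there and, by the same gene IDs, in the small RNA exon table. The study measured what sperm and oocyte bring to the zygote, with 15 mRNA libraries and 6 small RNA libraries from material grown at 24 °C. Sperm mRNA came from 1 library each of high-purity CB4856 sperm treated with pronase, fog-2(q71) sperm and low-purity CB4856 sperm. One-cell embryos came from fem-1(hc17ts)/TX189(OMA-1::GFP) mothers, which carry an OMA-1::GFP transgene in an N2 background, crossed with males of CB4856, a wild strain from Hawaii. Embryo mRNA was sequenced after poly(A) selection (3 libraries) or after depletion of rRNA by RiboMinus (3 libraries). Whole worms of the paternal strain CB4856 (3 libraries, sex not given) and whole worms of the mothers' own genotype, called maternal-strain worms here (3 libraries), stood for the parents. Small RNA libraries, prepared after 5′ polyphosphatase treatment, were made once each from fog-2(q71) sperm, TX189(OMA-1::GFP) embryos, hybrid embryos, hand-picked N2 oocytes, CB4856 worms and maternal-strain worms. The last of these carries N2 in its title and the maternal genotype in its strain field, by which it was grouped. The embryo small RNA libraries are titled as replicates 1 (hybrid) and 2 (TX189) but differ in genotype, and were kept apart.

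The proteins encoded by these genes carry tandem CCCH zinc fingers that bind RNA, mostly in the 3′ UTRs of maternal mRNAs. OMA-1 and OMA-2 act redundantly in the oocyte, where they hold maternal mRNAs in a silent state and are needed for oocyte maturation, and after fertilization they are phosphorylated by MBK-2 and destroyed. MEX-5 and MEX-6 set up the anterior-posterior asymmetry of the zygote's cytoplasm and keep germ plasm proteins out of the anterior. MEX-1, PIE-1 and POS-1 then pass to the posterior germline blastomeres, where PIE-1 holds back transcription, POS-1 controls translation of maternal mRNAs such as glp-1 and nos-2, and MEX-1 is needed for germ granule segregation and for keeping PIE-1 in the germline. The mRNAs are made in the mother's germline and loaded into the oocyte.

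Mapped depth, recovered from the steps of the RPKM values (reads per kb of gene model per M mapped reads), was 106.29 to 136.11 M reads in poly(A) embryos, 4.56 to 13.88 M in RiboMinus embryos and 31.7 to 156.1 M in worms, and is unknown for sperm. Libraries 1 and 2 of every group were about as close as sampling of fragments makes them (dispersion between 0.97 and 1.07, with 1 for sampling alone). This dispersion was divided by 2, which assumes that both reads of each fragment were counted. That is uncertain, since only 52.6% to 70.8% of features with 6 to 99 reads had an even count, by library. Libraries 1 and 2 were counted as 1 sample, so each group of 3 libraries had n = 2 samples. The p-values measure the spread between these samples only, which may be technical. Library 3 stood apart in both embryo groups: 16.1% of the genes tested differed by more than 2-fold between the samples of poly(A) embryos and 10.2% between those of RiboMinus embryos. As a check of the label, the summed RPKM of 7 sperm genes (spe-11, spe-9, spe-38, msp-3, msp-142, ssp-10 and alg-3) was 9833 in high-purity CB4856 sperm, 3962 in fog-2 sperm and 3668 in low-purity CB4856 sperm, against 1.36 and 0.210 in the samples of poly(A) embryos. How reads shared by similar genes were counted is not given in the sources used here, so values of the similar pairs oma-1 and oma-2, and mex-5 and mex-6, are uncertain to the extent that their reads are shared.

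All 7 mRNAs were abundant in the zygote, and pos-1 and oma-2 stood highest by group mean. In poly(A) embryos pos-1 had 2158, 2162 and 2927 RPKM and ranked 17 of 19119 named genes by mean, and oma-2 had 1515, 1512 and 1759 RPKM and ranked 52. In RiboMinus embryos pos-1 had 3694, 3656 and 2926 RPKM and ranked 8, and oma-2 had 1890.4, 1824 and 1883 RPKM and ranked 22. The other 5 genes were each below oma-2 in every poly(A) library. In RiboMinus libraries 1 and 2 mex-5 stood above oma-2, with 2161 and 2101 RPKM. Mex-5, mex-6 and pie-1 followed in poly(A) embryos and overlapped one another, and mex-1 and oma-1 came last and overlapped each other. In RiboMinus embryos pos-1 was again apart at the top, oma-2, mex-5, mex-6 and mex-1 followed, each overlapping its neighbour, and oma-1 and pie-1 overlapped at the low end. The 7 genes together took 0.764%, 0.762% and 1.06% of mapped reads in poly(A) embryos. Their share was 1.65%, 1.62% and 1.01% in RiboMinus embryos, 0.685% to 0.692% in CB4856 worms and 0.820% to 0.824% in worms of the maternal strain.

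In whole worms of both strains the order differed from that of the zygote, with mex-5 at the top and pos-1 next. Mex-5 had 1278, 1268 and 1281 RPKM in CB4856 worms, against 1420.4, 1417 and 1418 RPKM in maternal-strain worms, and pos-1 had 878, 881 and 910.1 RPKM and 1037, 1046 and 1061 RPKM in the same groups. Below them stood mex-1, mex-6, oma-2, pie-1 and oma-1 in CB4856 worms, and mex-6, mex-1, oma-2, pie-1 and oma-1 in maternal-strain worms. No neighbours in these orders overlapped in their samples. Oma-1, the least abundant of the genes in worms, still ranked 765 among the named genes in CB4856 worms and 506 in worms of the maternal strain. The orders are per length of gene model and descriptive, with no test between genes.

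**Figure D1:**
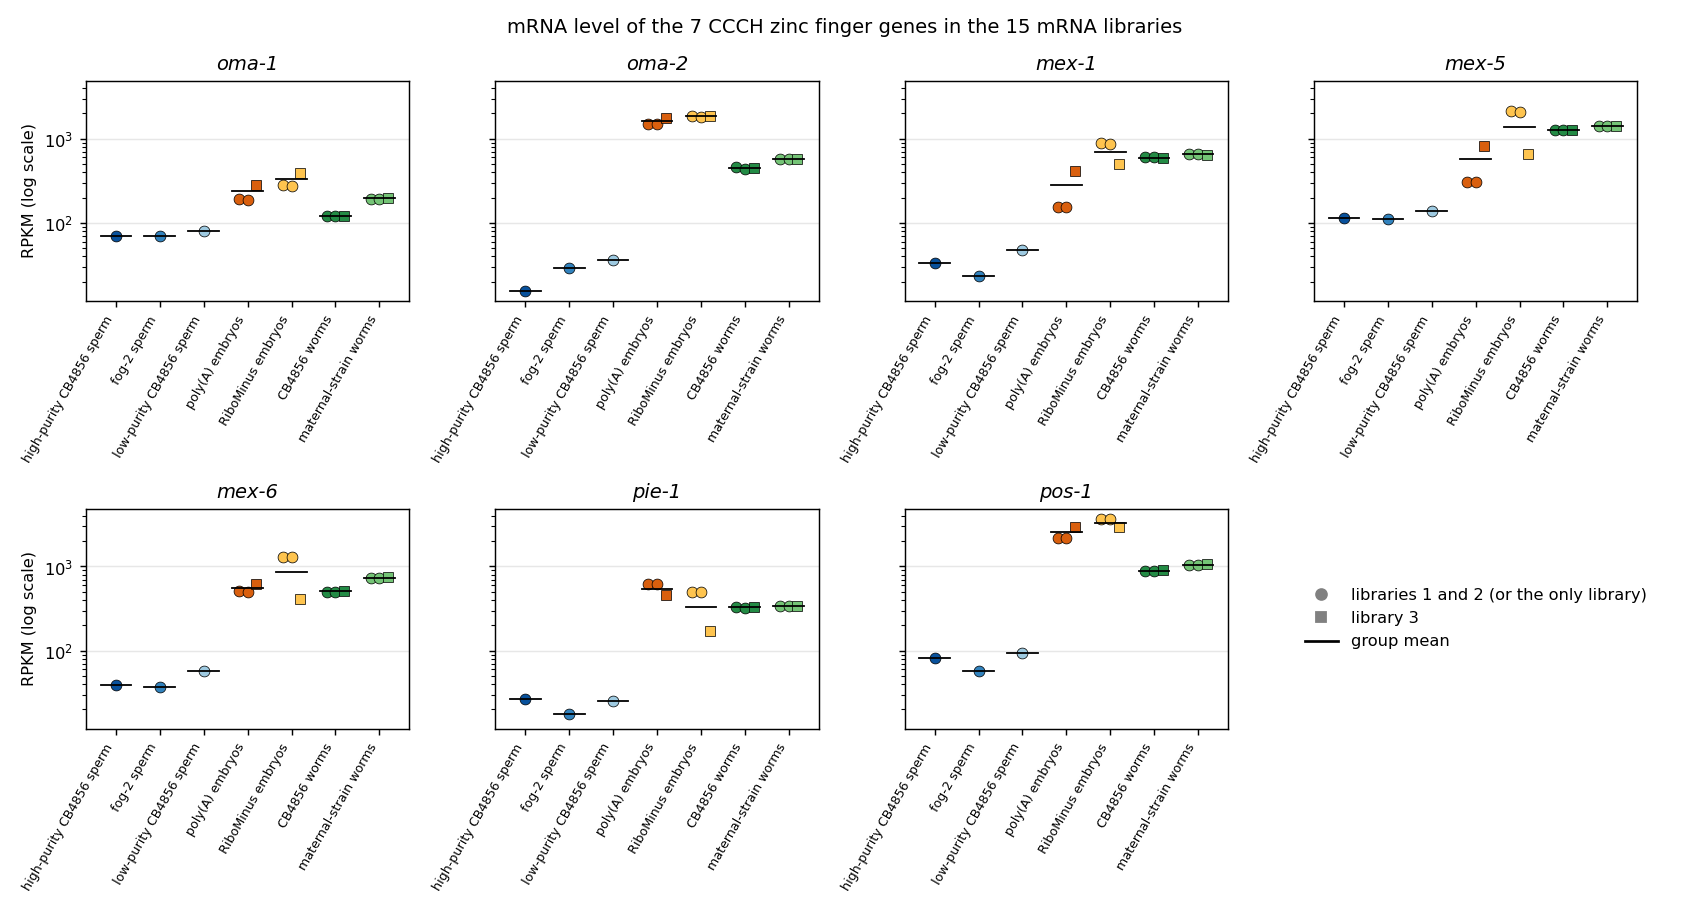
RPKM (log axis) of the 7 CCCH zinc finger genes in each of the 15 mRNA libraries, with 1 panel per gene and the groups along the horizontal axis; circles are libraries 1 and 2 or the only library, squares library 3 and lines group means. Oma-2 and pos-1 lie in poly(A) embryos at 1512 to 2927 RPKM, above the other 5 genes, and all 7 genes lie lower in the sperm libraries than in poly(A) embryos.

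The comparison of poly(A) embryos with maternal-strain worms asked how the mRNA content of the zygote stands to that of the strain that made the oocyte. Oma-2 and pos-1 rose in poly(A) embryos, mex-1 fell, and the remaining 4 genes did not pass the test. Thus 3 of the 7 genes were called, 2 higher and 1 lower, where 55.3% of the 11041 genes tested were called, 30.9% higher and 24.4% lower. With each library centred on the genes seen in all 12 replicated libraries, called centring on shared genes here and chosen after seeing the data, these shares were 14.1% higher and 49.7% lower. The share of called genes among the 7 was therefore no higher than that among all genes. A call needed an adjusted p under 0.05 (limma, Benjamini-Hochberg over all genes tested, two-sided) with a difference of at least 1 in log2(RPKM + 1). The median difference of the 7 genes was 0.26 and that of all genes 0.05 on this log2 scale.

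Of the oocyte maturation regulators, oma-2 averaged 1637 ± 174 RPKM in poly(A) embryos and 570.0 ± 0.142 RPKM in maternal-strain worms (SD, n = 2 each). Its log2 difference was 1.52 ± 0.15 (SE; limma adjusted p = 0.000214), with both embryo samples above both worm samples. Oma-1, its partner, had 192, 190.0 and 285 RPKM in poly(A) embryos and 194, 194 and 197 RPKM in maternal-strain worms. The first 2 embryo libraries sat just under the worm values and the third above them, so the groups overlapped (log2 difference 0.26 ± 0.26, limma adjusted p = 0.424), and the sign turned to −0.48 under quantile normalization and −0.81 under centring on shared genes. Both the embryos' mothers and the maternal-strain worms carry the OMA-1::GFP transgene, and its reads cannot be told apart from those of the endogenous oma-1 gene in this table.

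Among the anterior polarity genes, mex-5 had 310.3, 311 and 825 RPKM in poly(A) embryos and 1420.4, 1417 and 1418 RPKM in maternal-strain worms. Every embryo library was below every worm library, but the embryo samples lay far apart and the log2 difference of −1.48 ± 0.65 missed the threshold (limma adjusted p = 0.0862). Mex-6 had 506, 502 and 616 RPKM in poly(A) embryos and 727, 726 and 747 RPKM in maternal-strain worms. It too was lower in every embryo library, by less (log2 difference −0.40 ± 0.50, limma adjusted p = 0.518).

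Of the posterior genes, mex-1 had 155, 155 and 409.6 RPKM in poly(A) embryos and 658, 660.1 and 644 RPKM in maternal-strain worms. All embryo libraries lay below the worm libraries, and the log2 difference of −1.37 ± 0.49 was called with a limma adjusted p of 0.0456, close to the threshold. Pos-1 averaged 2544 ± 542 RPKM in poly(A) embryos and 1051 ± 13.3 RPKM in maternal-strain worms (SD, n = 2 each), with a log2 difference of 1.26 ± 0.21 (limma adjusted p = 0.00206) and no overlap. Pie-1, the repressor of transcription in germline blastomeres, had 615, 613 and 453 RPKM in poly(A) embryos and 342, 340.3 and 339 RPKM in maternal-strain worms. It was higher in every embryo library, but the log2 difference of 0.63 ± 0.48 did not pass the test (limma adjusted p = 0.292), and its sign turned to −0.43 under centring on shared genes.

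These calls rest on how embryos and worms are scaled, since centring on shared genes moved every difference by −1.07. With it oma-2 (0.45) and pos-1 (0.19) were no longer called, and mex-1 (−2.43), mex-5 (−2.55) and mex-6 (−1.47) were called lower. The order of the genes by their differences, from oma-2 at the top to mex-5 at the bottom, does not depend on such a shift. Whole worms also hold tissue that the zygote lacks: the summed RPKM of 7 intestine and yolk genes was 6.26 and 8.27 in the samples of poly(A) embryos and 15425 and 15485 in those of maternal-strain worms. That of 4 hypodermis genes was 3.09 and 0.618 in the samples of poly(A) embryos and 10475 and 10363 in those of maternal-strain worms. Fewer germ cells and less RNA per cell cannot be told apart in such bulk samples, and the part of tissue makeup in these differences was not tested. Without library 3 of poly(A) embryos mex-5 was called lower (−2.19) and mex-1 stood at −2.06, and without libraries 1 and 2 mex-1 stood at −0.67 and was not called. Nor was mex-1 called without either sample of maternal-strain worms.

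**Figure D2:**
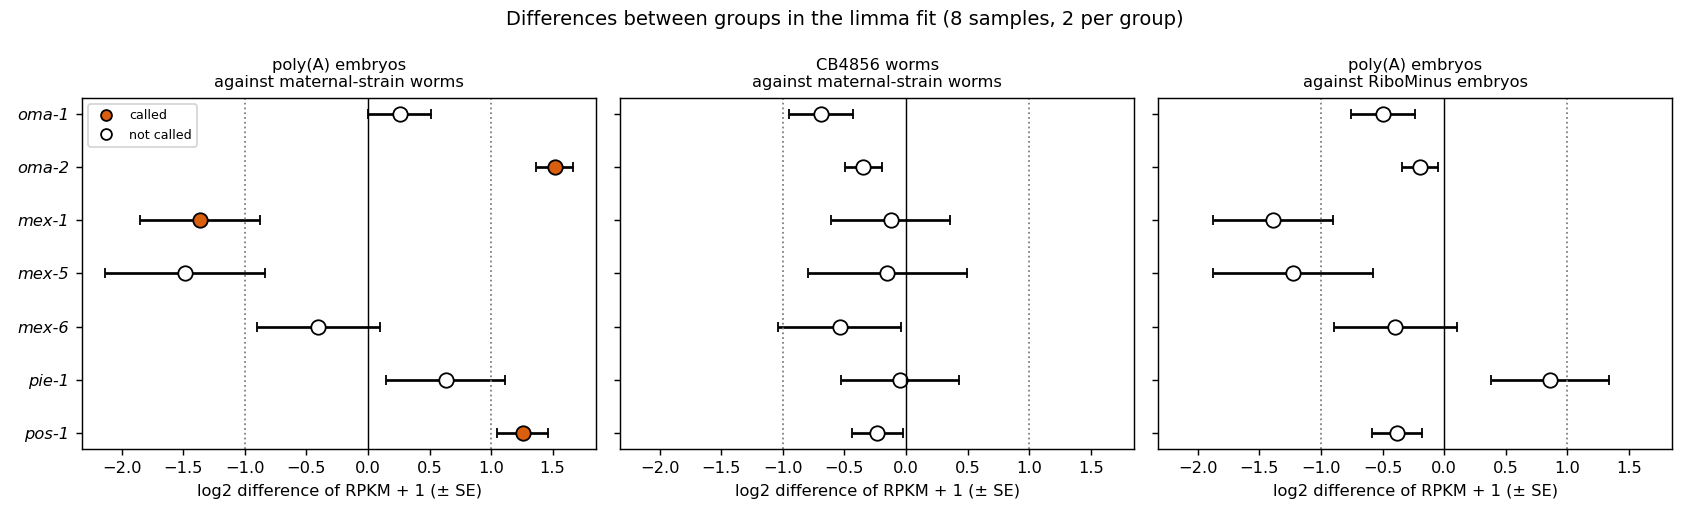
Differences of the 7 genes in log2(RPKM + 1) for 3 comparisons, the group named before minus the group named after "against", with SE bars from limma; filled points passed the call rule and dotted lines mark a 2-fold difference. In poly(A) embryos against maternal-strain worms oma-2 (1.52) and pos-1 (1.26) lie highest and mex-5 (−1.48) and mex-1 (−1.37) lowest, and no point is filled in the other 2 comparisons.

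The comparison of CB4856 worms with maternal-strain worms set the paternal strain against the maternal one. None of the 7 genes was called by limma, where 14.9% of all genes were (13.3% higher and 1.62% lower, against 8.34% and 5.23% under quantile normalization). An unadjusted limma p under 0.05 was found for 1 of the 7, oma-1, and for 3595 of the 11041 genes tested. Oma-1 had 121, 121 and 120.4 RPKM in CB4856 worms, against 194, 194 and 197 RPKM in maternal-strain worms. All CB4856 libraries lay below all maternal-strain libraries, with a log2 difference of −0.69 ± 0.26 (0.620-fold on the scale of RPKM + 1, limma adjusted p = 0.122). CB4856 worms lack the OMA-1::GFP transgene that the maternal strain carries. The 2 kinds of worm also differed in sperm mRNA. The summed RPKM of the 7 sperm genes listed above was 920 and 933 in the samples of CB4856 worms. In those of maternal-strain worms, which carry fem-1(hc17ts), it was 8.37 and 8.23. Strain, transgene, sperm content and growth of these worms cannot be told apart, and their parts in the differences were not tested. The gene unc-119, often used as the rescue marker of such transgenes although the labels do not say that this one carries it, had 8.03 RPKM in CB4856 worms, against 22.4 RPKM in maternal-strain worms, and its part in the result was not tested.

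The other 6 genes were lower in CB4856 worms by less. Oma-2 had 457, 441 and 447 RPKM in CB4856 worms, against 571, 569 and 569.9 RPKM in maternal-strain worms (log2 difference −0.35, limma adjusted p = 0.173). Mex-6 had 499, 503 and 513 RPKM in CB4856 worms, against 727, 726 and 747 RPKM in maternal-strain worms (−0.54, limma adjusted p = 0.584). The difference was −0.23 for pos-1, −0.15 for mex-5, −0.12 for mex-1 and −0.05 for pie-1, the last 2 of which turned to 0.02 and 0.09 under centring on shared genes, which moved every difference in this comparison by 0.14. Mex-1 had 600.5, 604 and 593 RPKM in CB4856 worms, against 658, 660.1 and 644 RPKM in maternal-strain worms, and pie-1, the closest of the 7 between the strains, had 334, 324 and 328 RPKM in CB4856 worms, against 342, 340.3 and 339 RPKM in maternal-strain worms. The samples of the 2 strains did not overlap for any of the 7 genes, and library 3 differed from libraries 1 and 2 by at most a few percent within each strain. Other genes were close within a strain too: 0.235% of all genes tested differed by at least 2-fold between the samples of CB4856 worms and 0.217% between those of maternal-strain worms. The share of all genes without overlap between the strains was not counted, so the lack of overlap does not set the 7 apart. In a limma fit of the worm groups alone, whose spread is much smaller than that of the embryos, each of the 7 had an adjusted p under 0.05. It ran from 3.58e-06 for oma-1 to 0.0394 for pie-1, while none reached the 2-fold difference that a call needs. In that fit 8696 of the 11041 genes tested had an unadjusted limma p under 0.05, so such p-values do not set the 7 apart. Over all 14 alternatives the adjusted p ranged from 3.58e-06 to 0.394 for oma-1 and from 0.0394 to 0.997 for pie-1.

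Poly(A) embryos and RiboMinus embryos are the same kind of zygote prepared in 2 ways, and poly(A) selection keeps only RNA whose tail binds the beads, whereas RiboMinus removes rRNA and keeps the rest. None of the 7 genes was called between them by limma, where 20.6% of all genes were (12.03% higher and 8.60% lower, against 8.98% and 9.77% under quantile normalization). An unadjusted limma p under 0.05 was found for 1 of the 7, mex-1, and for 4597 of the 11041 genes tested. Mex-1 had 155, 155 and 409.6 RPKM in poly(A) embryos and 885, 876 and 499.5 RPKM in RiboMinus embryos. No poly(A) library reached a RiboMinus library (log2 difference −1.39 ± 0.49, limma adjusted p = 0.0800), and mex-1 was called lower in 4 of 14 alternatives, whose adjusted p ranged from 0.00150 to 0.320. Oma-2 was also apart, with 1515, 1512 and 1759 RPKM in poly(A) embryos and 1890.4, 1824 and 1883 RPKM in RiboMinus embryos, by a small amount (−0.20, limma adjusted p = 0.382).

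The other 5 genes overlapped between the preparations. Mex-5 had 310.3, 311 and 825 RPKM in poly(A) embryos and 2161, 2101 and 659.6 RPKM in RiboMinus embryos (−1.23, limma adjusted p = 0.212). Pie-1 had 615, 613 and 453 RPKM in poly(A) embryos and 499.8, 491 and 170.1 RPKM in RiboMinus embryos, and was the one gene with a positive difference (0.86, limma adjusted p = 0.237). Mex-6 had 506, 502 and 616 RPKM in poly(A) embryos and 1288, 1311 and 414 RPKM in RiboMinus embryos, so the single RiboMinus library 3 lay below all poly(A) libraries and the other 2 above them (−0.40). Oma-1 had 192, 190.0 and 285 RPKM in poly(A) embryos and 282, 275 and 391 RPKM in RiboMinus embryos (−0.50), and the difference was −0.38 for pos-1. The median of the 7 genes was −0.40 and that of all genes 0.06. The sign of the mex-6 difference turned to 0.43 when libraries 1 and 2 of RiboMinus embryos were left out.

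The samples of each embryo group differed from each other in these genes, and not in the same direction. Library 3 of poly(A) embryos stood at 2.64 times the mean of libraries 1 and 2 for mex-1 and at 2.66 times for mex-5, while oma-1 stood at 1.49, pos-1 at 1.36, mex-6 at 1.22, oma-2 at 1.16 and pie-1 at 0.737 times. In RiboMinus embryos library 3 stood at 0.310 times for mex-5, 0.318 times for mex-6, 0.343 times for pie-1 and 0.567 times for mex-1, while pos-1 stood at 0.796, oma-1 at 1.40 and oma-2 at 1.01 times. Among the 7, oma-2 and pos-1 were thus steadier than mex-5 in both embryo preparations. A ratio as far from 1 as that of mex-5 was found for 7.14% of genes in poly(A) embryos and for 1.70% in RiboMinus embryos. The labels give no difference between the libraries of a group, and a cause of the spread was not tested.

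**Figure D3:**
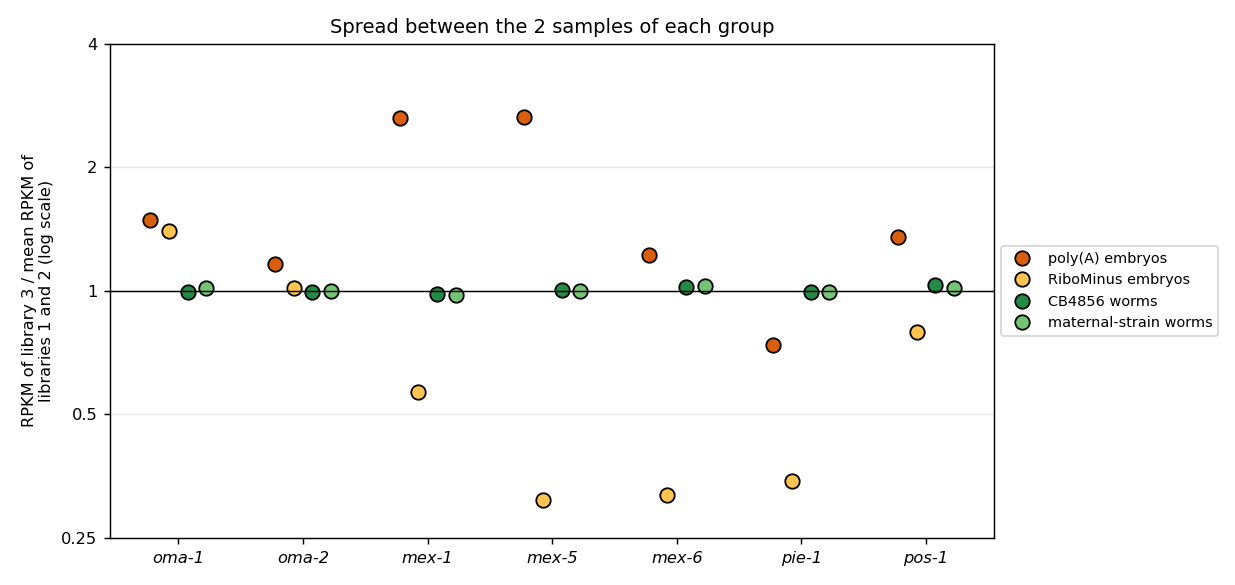
Ratio of library 3 to the mean of libraries 1 and 2 (log axis) for the 7 genes in poly(A) embryos, RiboMinus embryos, CB4856 worms and maternal-strain worms; each point is 1 gene. Mex-1 and mex-5 lie at 2.64 and 2.66 in poly(A) embryos, mex-5, mex-6 and pie-1 between 0.310 and 0.343 in RiboMinus embryos, and all worm ratios close to 1.

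The balance of the paralogous pairs differed from sample to sample, as measured by the ratio of RPKM values of the partners within a library. The ratio of oma-1 to oma-2 was 4.47 in high-purity CB4856 sperm, 2.39 in fog-2 sperm and 2.19 in low-purity CB4856 sperm. It was 0.126 and 0.162 in the samples of poly(A) embryos, 0.150 and 0.207 in RiboMinus embryos, 0.269 in both samples of CB4856 worms and 0.340 and 0.345 in maternal-strain worms. Oma-2 thus outnumbered oma-1 in embryos and worms, most in embryos, and oma-1 outnumbered oma-2 in each sperm library. The ratio of mex-5 to mex-6 was 2.93, 3.04 and 2.42 in high-purity CB4856, fog-2 and low-purity CB4856 sperm. It was 0.616 and 1.34 in poly(A) embryos, against 1.64 and 1.59 in RiboMinus embryos, 2.54 and 2.50 in CB4856 worms and 1.95 and 1.90 in maternal-strain worms. Mex-5 was the more abundant partner everywhere except in the poly(A) embryo sample that averages libraries 1 and 2. These ratios are descriptions, with n = 2 samples a group and 1 library of each kind of sperm.

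**Figure D4:**
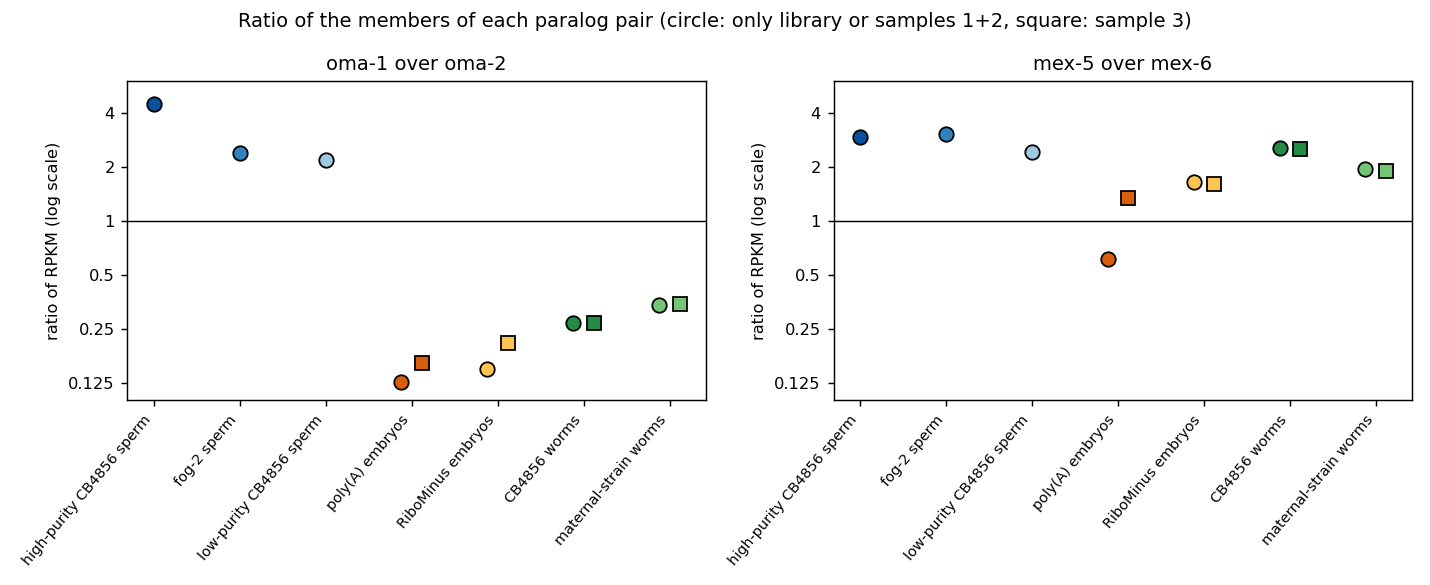
Ratio of RPKM (log axis) of oma-1 to oma-2 and of mex-5 to mex-6 in each sample, with the groups along the horizontal axis; points are samples. Oma-1 to oma-2 lies above 1 in the sperm libraries (2.19 to 4.47) and below 1 in all embryo and worm samples (0.126 to 0.345).

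Sperm libraries held much less of these mRNAs than the zygote. With 1 library of each kind of sperm there was no test, and a gene was counted when its RPKM + 1 differed by at least 4-fold. Shares of all genes are of named genes with at least 1 RPKM in either group compared. These were 13193, 13748 and 13377 genes for high-purity CB4856, fog-2 and low-purity CB4856 sperm against poly(A) embryos. Folds of single genes, and counts against 1 embryo sample, are of RPKM itself. In each of the 3 sperm libraries 6 of the 7 genes were more than 4-fold lower than in poly(A) embryos, where 12.7%, 11.2% and 11.3% of genes were that much lower and 30.9%, 35.5% and 33.3% that much higher in high-purity CB4856, fog-2 and low-purity CB4856 sperm. Against libraries 1 and 2 of poly(A) embryos alone, without library 3, the count was 5 in high-purity CB4856 sperm, 5 in fog-2 sperm and 4 in low-purity CB4856 sperm, and against library 3 alone it was 7, 7 and 6 in the same order. Oma-2 differed most, with 15.6, 29.0 and 36.6 RPKM in high-purity CB4856, fog-2 and low-purity CB4856 sperm against a mean of 1637 RPKM in poly(A) embryos, or 105-fold, 56.4-fold and 44.8-fold lower. Pos-1 followed, with 81.0, 56.6 and 94.99 RPKM in these sperm libraries, 31.4-fold, 44.9-fold and 26.8-fold lower than in poly(A) embryos.

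Pie-1 had 26.8, 17.8 and 25.1 RPKM in high-purity CB4856, fog-2 and low-purity CB4856 sperm, 19.9-fold to 29.9-fold lower than in poly(A) embryos. Mex-6 was 9.72-fold to 15.3-fold lower, mex-1 5.86-fold to 11.9-fold lower and mex-5 4.08-fold to 5.08-fold lower. The last 2 rest on library 3 of poly(A) embryos: without it mex-5 was 2.68-fold, 2.78-fold and 2.23-fold lower and mex-1 4.59-fold, 6.55-fold and 3.22-fold lower in high-purity CB4856, fog-2 and low-purity CB4856 sperm. Oma-1 was the exception against the mean of poly(A) embryos, with 69.6, 69.3 and 80.1 RPKM in the same sperm libraries, or 29.2%, 29.1% and 33.6% of that mean. This too depends on the embryo sample. Against library 3 alone oma-1 was 4.10-fold, 4.12-fold and 3.56-fold lower in the same order. Against libraries 1 and 2 it was 2.74-fold, 2.76-fold and 2.39-fold lower, close to mex-5. Mex-5 was the most abundant of the 7 in each sperm library, with 115.998, 112 and 139 RPKM.

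The sperm libraries also held mRNA of other tissues. The summed RPKM of 7 intestine and yolk genes was 812 in high-purity CB4856 sperm, 1806 in fog-2 sperm and 2793 in low-purity CB4856 sperm, and no gene of these marker lists was at 0 in these libraries. The sum was 2573, 1569 and 3935 for 4 hypodermis genes, 1751, 1173 and 1301 for 6 muscle genes and 45.9, 35.8 and 44.3 for 3 somatic gonad genes. That of 6 genes listed for the oocyte, the egg yolk receptor rme-2 among them, was 359.6, 323 and 562. Rme-2 itself had 89.2, 62.1 and 138 RPKM, against 203 RPKM in poly(A) embryos and 705 RPKM in maternal-strain worms. In this list perm-2 and perm-4 had only 0.737 and 0.696 RPKM in poly(A) embryos, against 2350 and 3432 RPKM in maternal-strain worms. The other genes of the list had 203 to 833 RPKM in poly(A) embryos. Perm-2 and perm-4 had 66.6 and 41.4 RPKM in high-purity CB4856 sperm, so the sum may not be of oocyte mRNA alone. The 7 regulators summed to 382, 345 and 482 RPKM in high-purity CB4856, fog-2 and low-purity CB4856 sperm. The oocyte and hypodermis lists ranked the libraries in this order, and the intestine and yolk, muscle and somatic gonad lists did not. The part of RNA from other cells in these levels was not tested. High-purity CB4856 sperm had none of the 7 more than 4-fold away from low-purity CB4856 sperm, where 1.76% of genes were lower and 0.858% higher by that much. In high-purity sperm oma-2 stood at 42.6% of its low-purity level, mex-6 at 68.7%, mex-1 at 70.2%, mex-5 at 83.3%, pos-1 at 85.3%, oma-1 at 86.9% and pie-1 at 107%. The sum of the 7 sperm genes was higher in the same comparison, 9833 against 3668.

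Profiles of the 7 genes were compared across the 11 mRNA samples (8 averaged samples of embryos and worms and 3 sperm libraries), as a description with no test. All 7 were lower in the 3 sperm libraries than in embryos and worms, and this difference enters every r. Outside sperm they did not all move together: poly(A) embryos against maternal-strain worms gave 1.52 for oma-2 and −1.48 for mex-5. The range of r over all pairs of genes was not counted. Pearson's r of log2(RPKM + 1) was 0.99 between oma-2 and pos-1 and 0.98 between mex-1 and mex-5, and lowest, at 0.68, between oma-1 and mex-5. The paralogs were less alike than these pairs, with r of 0.93 for oma-1 and oma-2 and 0.94 for mex-5 and mex-6. Samples of a group share tissue and library preparation, so the 11 points are not independent. Among all genes tested, the nearest profiles were those of vrk-1 (0.987) and lido-5 (0.982) for oma-1, W04G3.5 and F26F4.6 (0.996 each) for oma-2, and mex-5 (0.982) and slr-2 (0.981) for mex-1. For mex-5 they were tbb-2 (0.986) and mex-1 (0.982), for mex-6 plk-1 (0.989) and taf-12 (0.987), for pie-1 rpb-7 (0.992) and F52A8.1 (0.991), and for pos-1 R05G9.3 (0.996) and F54D5.5 (0.995).

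Genes that work with or under the 7 regulators moved in different directions in poly(A) embryos against maternal-strain worms. The lists were chosen with results of these data known and are given as counts, to be read against the 30.9% of all genes called higher and 24.4% called lower, or 14.1% and 49.7% under centring on shared genes. Of 8 genes whose mRNAs or proteins the 7 regulators act on, 4 rose and none fell by the limma call, with a median log2 difference of 1.34, where the other 4 were not called at an adjusted p of 0.110 or more. Under centring on shared genes 3 were called higher and 1 lower. Cdc-25.3, a phosphatase of the cell cycle, averaged 255 RPKM in poly(A) embryos and 14.2 RPKM in maternal-strain worms, and nos-2, a Nanos relative that acts in primordial germ cells and whose translation OMA-1 and OMA-2 hold back in oocytes, averaged 428 and 27.7 RPKM in the same groups. Mom-2, the Wnt ligand of early blastomeres, averaged 517 RPKM in poly(A) embryos and 82.2 RPKM in maternal-strain worms, and neg-1 (F32D1.6) 354 and 86.5 RPKM. These 4 had log2 differences between 1.97 and 3.99.

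Of 11 RNA-binding partners found in OMA or POS-1 complexes, none rose and 6 fell by the limma call, with a median of −1.23, and 9 were called lower under centring on shared genes and 7 under quantile normalization. Lin-41, which works against the OMA proteins in oocyte maturation, averaged 26.4 ± 9.22 RPKM in poly(A) embryos and 242 ± 4.62 RPKM in maternal-strain worms (SD, n = 2 each), and car-1, a granule protein, 647 ± 299 and 3060.0 ± 21.7 RPKM. The poly(A) polymerase gene gld-2 (log2 difference −2.28), ifet-1 (−1.52), the DEAD-box helicase gene cgh-1 (−1.32) and puf-3 (−1.07) fell as well. The other 5 of the list were not called, mex-3 (−0.17) and spn-4 (0.61) among them. In the same list 6 genes were called lower in poly(A) embryos than in RiboMinus embryos and none higher, where 8.60% of all genes were called lower, and 5 to 9 were called lower under the 3 other scalings.

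Of 12 kinase and egg activation genes linked to these proteins, 2 rose and 3 fell in poly(A) embryos against maternal-strain worms, against 0 higher and 5 lower under centring on shared genes and 0 higher and 4 lower under quantile normalization. Egg-3, which holds MBK-2 at the oocyte cortex, averaged 322 and 141 RPKM in these groups and cdk-1 314 and 119.9 RPKM, both higher. Gsk-3 (−2.93), the chitin synthase gene chs-1 (−1.55) and the polarity kinase gene par-1 (−1.50) were lower. Mbk-2 itself averaged 117 RPKM in poly(A) embryos and 62.1 RPKM in maternal-strain worms, a log2 difference of 0.83 that is under the 2-fold a call needs (limma adjusted p = 0.0431). Of the 5 genes of the ligase that removes CCCH proteins from somatic blastomeres, elb-1 (2.15) and rbx-1 (1.93) rose, elc-1 (−2.47) and cul-2 (−1.43) fell, and the substrate receptor gene zif-1 had 149 ± 126 RPKM in poly(A) embryos and 109 ± 0.158 RPKM in maternal-strain worms and was not called. Under centring on shared genes 1 of these 5 was called higher and 2 lower.

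Of 11 other CCCH family genes found in the table, 7 passed the filter on low values, and 3 rose and 2 fell in poly(A) embryos, against 2 higher and 3 lower under centring on shared genes and 3 higher and 1 lower under quantile normalization. Ccch-5 averaged 85.1 ± 2.26 RPKM in poly(A) embryos and 4.78 ± 0.395 RPKM in maternal-strain worms, and ccch-3 averaged 70.4 ± 14.0 and 4.03 ± 0.0867 RPKM in the same groups (SD, n = 2 each). Their log2 differences were 3.90 and 3.81. Y60A9.3 rose to 2.16 RPKM in poly(A) embryos, against 0.212 RPKM in maternal-strain worms, ccch-1 fell to 0.225 RPKM, against 5.84 RPKM, and moe-3 fell to 0.882 RPKM, against 2.60 RPKM. None of these relatives reached the level of the least abundant of the 7 regulators in poly(A) embryos. Over the 5 lists all 24 calls kept their sign under 3 other scalings and 17 remained calls under all 3.

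In the other comparisons of these lists, ccch-1 was called in CB4856 worms against maternal-strain worms, at 12.7 and 5.84 RPKM (log2 difference 1.00, limma adjusted p = 0.00250), and was not called under every scaling. Poly(A) embryos against RiboMinus embryos gave 17 calls over the lists, and 15 remained under all 3 scalings. The largest were gsk-3, with 6.60 RPKM in poly(A) embryos against 131 RPKM in RiboMinus embryos, gld-2, with 9.40 and 74.5 RPKM, lin-41, with 26.4 and 207 RPKM, and ccch-3, with 70.4 and 11.2 RPKM. The first 3 were lower and ccch-3 higher in poly(A) embryos.

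Small RNAs over the exons of the 7 genes were mostly antisense. Antisense small RNAs in this species include 22G RNAs, which Argonaute proteins such as CSR-1 carry against germline mRNAs and which bear the 5′ triphosphate that polyphosphatase makes clonable. Values are RPM, reads per M reads in 8 class tables of the library, which held 9.55 M reads for fog-2 sperm, 15.3 M for TX189 embryos, 5.38 M for hybrid embryos, 8.10 M for N2 oocytes, 2.23 M for CB4856 worms and 2.50 M for worms of the maternal strain. Each group had 1 library, so there was no test, and intervals are exact 95% Poisson intervals that cover counting error only. Antisense reads made up 96.1% of all exon reads of the 7 genes in fog-2 sperm, 88.3% in TX189 embryos, 81.8% in hybrid embryos, 89.8% in N2 oocytes, 95.01% in CB4856 worms and 92.2% in worms of the maternal strain. Over all exons the share was 95.4%, 94.3%, 89.6%, 96.9%, 74.3% and 80.8% in the same libraries. Introns of the 7 genes held at most 2 antisense reads each in any library.

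The summed antisense level of the 7 genes was 97.7 RPM in fog-2 sperm, 694 RPM in TX189 embryos, 254 RPM in hybrid embryos, 191 RPM in N2 oocytes, 418 RPM in CB4856 worms and 585 RPM in worms of the maternal strain. It was thus lowest in sperm and highest in TX189 embryos. Exon antisense reads as a whole took different shares of these libraries, 75.3%, 81.4%, 55.5%, 82.0%, 22.8% and 26.9% in the same order. As a share of exon antisense reads the 7 genes took 0.0130% in fog-2 sperm, 0.0852% in TX189 embryos, 0.0457% in hybrid embryos, 0.0233% in N2 oocytes, 0.183% in CB4856 worms and 0.217% in worms of the maternal strain. On that scale the worms stood highest, and sperm again lowest.

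In fog-2 sperm against N2 oocytes, 2 of the 7 genes were more than 4-fold lower and none higher, where 35.1% of exon features with at least 50 reads in the higher library were lower and 15.6% higher by that much. Pie-1 had 21 antisense reads in sperm (2.20 RPM, 1.36 to 3.36) and 112 in oocytes (13.8 RPM, 11.4 to 16.6), or 6.28-fold lower. Oma-2 had 42 reads in sperm (4.40 RPM, 3.17 to 5.95) and 187 in oocytes (23.1 RPM, 19.9 to 26.6), or 5.25-fold lower. Mex-5 was close in both, with 32.9 RPM in sperm (29.4 to 36.7) and 37.4 RPM in oocytes (33.3 to 41.9), and its intervals overlapped, as did those of pos-1. Mex-1 was 2.69-fold, mex-6 2.51-fold and oma-1 1.53-fold lower in sperm.

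In hybrid embryos against N2 oocytes none of the 7 was past 4-fold, where 6.24% of features were lower and 1.97% higher by that much. With so few features past 4-fold, this count does not set the 7 apart. Oma-1 differed most, with 64.0 RPM in hybrid embryos (57.4 to 71.1) and 26.4 RPM in oocytes (23.0 to 30.2), and pos-1 followed with 30.5 RPM (26.0 to 35.5) and 15.8 RPM (13.2 to 18.8). The log2 differences of the other 5 genes lay between −0.10 and 0.23. When reads were scaled to exon antisense reads, oma-1 was 3.58-fold and pos-1 2.85-fold higher in hybrid embryos, and the other 5 lay between 0.47 and 0.79 in log2. N2 oocytes carry no OMA-1::GFP transgene, while the mothers of the hybrid embryos do. Transgene, strain, stage and library cannot be told apart here, and their parts in these differences were not tested.

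In TX189 embryos against hybrid embryos, mex-1 was past 4-fold, where 13.7% of features were higher and 3.81% lower by that much. Mex-1 had 4537 antisense reads in TX189 embryos (296 RPM, 288 to 305) and 226.5 in hybrid embryos (42.1 RPM, 36.8 to 48.0), or 7.03-fold higher. Mex-1 was the gene with the most antisense reads of the 7 in TX189 embryos, and oma-1 in hybrid embryos. Mex-5, mex-6 and pos-1 had log2 differences of 1.22, 1.22 and 1.15, and oma-1, oma-2 and pie-1 of 0.55, 0.46 and 0.43, which turned to about 0 or below when reads were scaled to exon antisense reads. In CB4856 worms against maternal-strain worms none was past 4-fold, where 3.84% of features were lower and 22.4% higher by that much. Pos-1 had 13.9 RPM in CB4856 worms (9.44 to 19.7) and 40.1 RPM in maternal-strain worms (32.6 to 48.7), oma-1 had 47.9 RPM (39.3 to 57.9) and 135 RPM (121 to 150), and mex-5 was the one gene higher in CB4856 worms (mex-6 too when scaled to exon antisense reads), at 173 RPM (156 to 191) against 125 RPM (111 to 140).

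**Figure D5:**
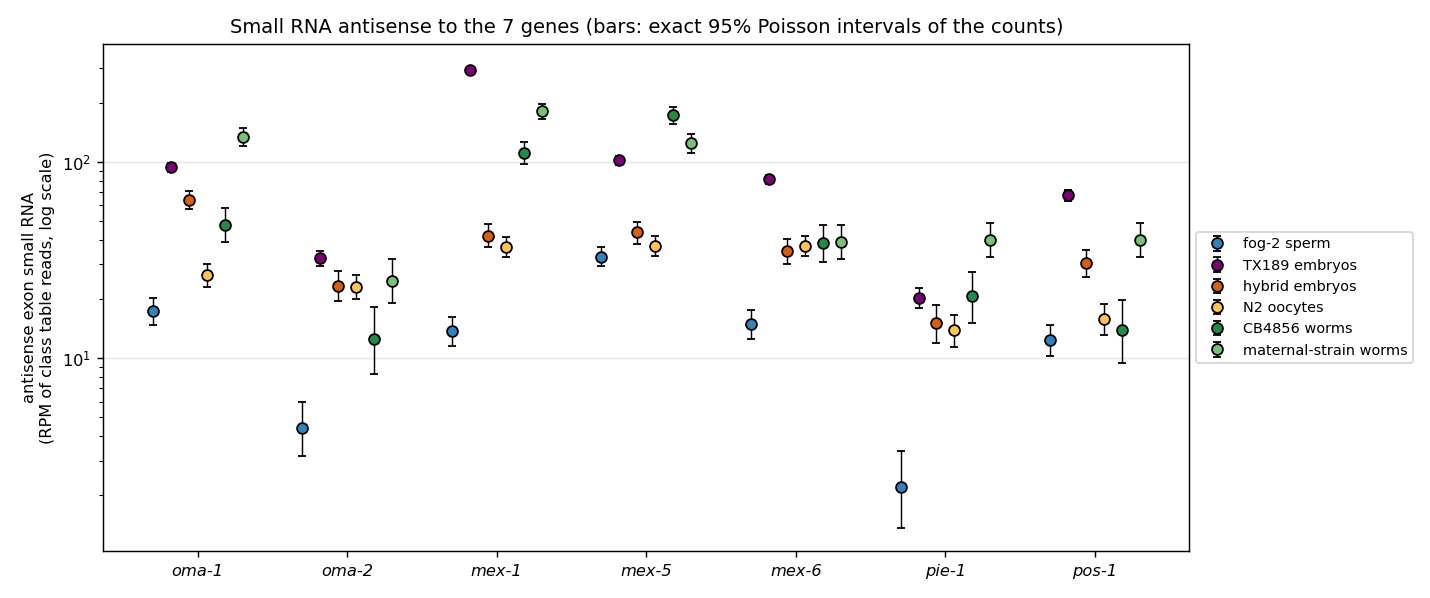
Antisense exon small RNA (RPM, log axis) of the 7 genes in the 6 small RNA libraries, with exact 95% Poisson intervals that cover counting error; there is 1 library a group. Mex-1 reaches 296 RPM in TX189 embryos, and pie-1 (2.20 RPM) and oma-2 (4.40 RPM) lie lowest in fog-2 sperm.

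Sense exon reads of the 7 genes were fewer than antisense reads in each library, with sums between 38 in fog-2 sperm and 1407 in TX189 embryos. Most of those in TX189 embryos came from pos-1, with 592 reads (38.6 RPM, 35.6 to 41.9), mex-5, with 348 (22.7 RPM, 20.4 to 25.2), and mex-1, with 216 (14.1 RPM, 12.3 to 16.1). Mex-1 and pie-1 had no sense read in fog-2 sperm, a count of 0 for which a limit of 3 reads, or 0.314 RPM, was used (the upper end of the exact interval was 0.386 RPM). In fog-2 sperm against N2 oocytes none of the 7 reached 50 sense reads in either library, so the 4-fold rule could not count any. The highest count was 44 reads, for mex-5 in oocytes, and the 70.2% of features past 4-fold covers only features with at least 50 reads. On these few reads all 7 were lower in sperm, from 2.47-fold for mex-5 to 17.1-fold for mex-6. In TX189 embryos against hybrid embryos none was past 4-fold, where 29.5% of features were, and oma-1 and oma-2 had too few reads for the rule. In CB4856 worms against maternal-strain worms only oma-1 had at least 50 sense reads, and it was past 4-fold, where 24.7% of features with that many reads were. Oma-1 had 5 sense reads (2.24 RPM, 0.727 to 5.23) in CB4856 worms against 51 (20.4 RPM, 15.2 to 26.9) in maternal-strain worms. In hybrid embryos against N2 oocytes, 1 of the 7 was past 4-fold, where 64.3% of features were. This was mex-6, with 111 sense reads (20.7 RPM, 16.99 to 24.9) in hybrid embryos against 29 (3.58 RPM, 2.40 to 5.14) in N2 oocytes. Mex-5 and pos-1 also had at least 50 reads there and were not past 4-fold, and the other genes had too few reads for the rule. The background share of features past 4-fold was thus large in this last comparison.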

How the data were processed

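The mRNA values are RPKM, as deposited by the authors. The submitters' processing notes name BWA, without a version, and the genome build, annotation and counting rule are not given in the sources used here, so no coordinates are given. An empty value was taken as 0. In the 12 replicated libraries the RPKM steps gave whole reads (within 0.01) for 16863 of 16865 features. Sperm values were not whole multiples of a read. The deposited small RNA tables hold a signal which, by the values, is reads times 1 constant per library. Reads were recovered with it (90.2% to 92.5% of values whole) and scaled to the reads of 8 class tables. Of the columns of the small RNA files, 8 in each file belong to no sample listed and were left out. Oocyte and worm columns were matched to the one sample of that kind.

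Libraries 1 and 2 of each group were averaged. The test was limma (version 3.58.1, in R 4.3.3) on log2(RPKM + 1) with an intensity trend, in 1 fit of 4 groups and 8 samples. It covered 11041 genes that reached 1 RPKM in 3 or more of 12 libraries. A fold on this scale understates that of low genes. All 7 regulators passed that filter. The fit, the recovery of depth and that of the small RNA constant were tested on simulated data. Sperm and small RNA comparisons had 1 library of each kind of sperm or small RNA and used a 4-fold rule. For sperm it was applied to RPKM + 1, and for small RNAs with at least 50 reads in the higher library. Other work used Python 3.11.15 with numpy 2.4.6, pandas 2.3.3, scipy 1.17.1 and matplotlib 3.10.9.

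The 7 genes, the lists, the markers, the tests and the naming rule were chosen with earlier results of these data known. The rule named all 7 genes, every list gene called in poly(A) embryos against maternal-strain worms, up to 4 in each other comparison by size of difference, and the 2 genes most correlated with each of the 7; genes named beside these were chosen after their values were seen. One listed CCCH name (gla-1) was not matched, and dct-13 and Y116A8C.17 are 1 gene. F32D1.6 was matched to neg-1 through RefSeq names. Alternatives were another pseudocount (5 or 0.1), an RPKM minimum of 5, no filter, other scalings, 3 separate libraries, a fit of the 2 groups alone, a replicate block and leaving out each sample. Same-numbered samples are not said to share a batch, and did not deviate together in every pair of groups.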

Additional observations from a re-analysis of the deposited data

How the results depend on the processing

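Of 434 values of single genes under an alternative, 387 stayed the same, 9 lost a call, 12 gained one, 12 turned sign and 14, all without a test, moved. For limma values, the same meant the same direction and call. For values without a test it meant the same direction and a shift within a limit, whatever the side of the 4-fold rule. That limit was the SD between the poly(A) embryo samples for sperm values and the counting error for small RNA values. In poly(A) embryos against maternal-strain worms 2 of the 7 genes were called higher under every alternative except centring on genes seen in all 12 replicated libraries, chosen after seeing the data, which gave 0 higher and 3 lower. The 1 called lower became 0 with a pseudocount of 5, without a filter, in the fit of 2 groups and with the replicate block, 2 with 3 separate libraries, and 0 to 2 when samples were left out. Mex-1 was called in 7 of 14 alternatives (adjusted p 0.00136 to 0.150), and oma-2 and pos-1 in 13 of 14. Oma-1 turned to −0.48 under quantile normalization, −0.81 under that centring and, when samples were left out, lay between −0.0311 and 0.54, and pie-1 turned to −0.43 under that centring. In CB4856 worms against maternal-strain worms the same centring turned mex-1 to 0.0163 and pie-1 to 0.0913.

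In poly(A) embryos against RiboMinus embryos the genes called lower were 2 under quantile normalization and with 3 separate libraries, 1 under centring on shared genes and 0 to 1 when samples were left out, and those called higher 0 to 1. Mex-6 lay between −1.22 and 0.43 when samples were left out, with 0.43 without libraries 1 and 2 of RiboMinus embryos. The causes were not tested. With small RNA reads scaled to exon antisense reads, mex-6 turned to 0.47 in hybrid embryos against oocytes and to 0.21 in CB4856 worms against maternal-strain worms, and in TX189 embryos against hybrid embryos oma-1 turned to −0.00193, oma-2 to −0.0924 and pie-1 to −0.12.

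Deviations of same-numbered samples correlated at 0.73 between the worm groups, 0.24 to 0.28 in 3 other pairs of groups and 0.08 and 0.09 between poly(A) embryos and the worm groups, so the numbers were not taken as pairing the samples throughout. The replicate block ended the mex-1 call in poly(A) embryos against maternal-strain worms (−1.37, adjusted p 0.0633) and changed no other call of the 7 genes. Over all genes, calls in CB4856 worms against maternal-strain worms numbered 1642, against 671 where the pseudocount was 5 and 831 where the RPKM minimum was 5. In poly(A) embryos against RiboMinus embryos they numbered 2278, against 0 by limma in the fit of 2 groups, where 2426 genes had an unadjusted p under 0.05. With n = 2 samples a group, 1 library of each kind of sperm and an unknown sperm depth, precision was limited.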
